A study of Mus musculus with 6 samples.

Results

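Genes that p53 is known to activate when it halts the cell cycle were examined in mouse colorectal tumors with and without *Trp53* in the epithelium. The members, *Cdkn1a*, *Ccng1*, *Btg2*, *Gadd45a*, *Sesn1*, *Sesn2*, *Plk2*, *Zmat3*, *Sfn* and *Ckap2*, were chosen by name from general knowledge of the p53 pathway, 10 of the 54167 genes measured. Earlier results of these data were known when these genes were chosen. All 10 reached 1 TPM in 3 tumors or more, the condition that left 15117 genes for testing. TPM, the unit of all levels here, is an abundance divided by transcript length and scaled to a fixed total in each tumor. It compares genes within a tumor, and it compares tumors only as shares of that total.

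RNA-seq was done on dissected colorectal tumor tissue of C57BL/6J mice, with 3 samples per genotype. In the Trp53fl/fl group the *Trp53* alleles carry loxP sites and no Cre is present. The VP group (Pvillin-Cre + Trp53fl/fl) carries the same floxed alleles together with Cre driven by the villin promoter. Male mice of both groups received azoxymethane (AOM, a carcinogen) at 10 mg/kg at the age of 8 weeks and then repeated rounds of 2.5% DSS (dextran sulfate sodium, an inflaming agent of the colon) lasting 7 days, and tumors were taken on day 98. Because villin is expressed in intestinal epithelial cells, fibroblasts, vessels and leukocytes of a VP tumor keep their *Trp53*. The number of tumors pooled per sample is not given in the sources used here, and the labels do not state that the numbered samples of a group came from separate mice, so p-values measure the spread between these samples.

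p53 is a transcription factor that is stabilised by DNA damage and other stress and binds a response element made of a pair of consensus decamers. Its best known arrest target, *Cdkn1a*, encodes the inhibitor p21, which blocks cyclin-dependent kinases, keeps RB family proteins active and thereby holds back genes of S phase and mitosis. Other targets of the same branch restrain mitotic entry, damp growth signalling through mTORC1, act on mRNA or feed back on p53, and several of them are also induced by stress pathways that do not need p53. In the intestine this branch limits the division of damaged crypt cells.

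In the VP tumors, 5 of the 10 members, namely *Ccng1*, *Zmat3*, *Cdkn1a*, *Ckap2* and *Sesn2*, lay below the Trp53fl/fl tumors without overlap, with mean levels between 36.8% and 72.1% of the Trp53fl/fl mean. The other 5, namely *Btg2*, *Gadd45a*, *Sesn1*, *Plk2* and *Sfn*, overlapped between the genotypes. No member passed limma's test across all genes at an adjusted p under 0.05, and 5 members, the same ones whose groups did not overlap, had an unadjusted p under 0.05. Among all genes tested, 13.3% had every VP tumor below every Trp53fl/fl tumor, 8% were lower in VP tumors at an unadjusted p under 0.05 and 0.086% were lower at an adjusted p under 0.05. No member was higher at either threshold or lay above the Trp53fl/fl tumors without overlap, against 4.51%, 0.0794% and 6.03% of all genes. The log2 fold change, VP minus Trp53fl/fl on the log2(TPM + 1) scale, was below 0 for 7 of the 10 members and for 60.8% of all genes, and its median was -0.27 over the members and -0.07 over all genes. In whole tumor tissue, fewer cells of a type and less RNA per cell cannot be told apart.

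**Figure D1:**
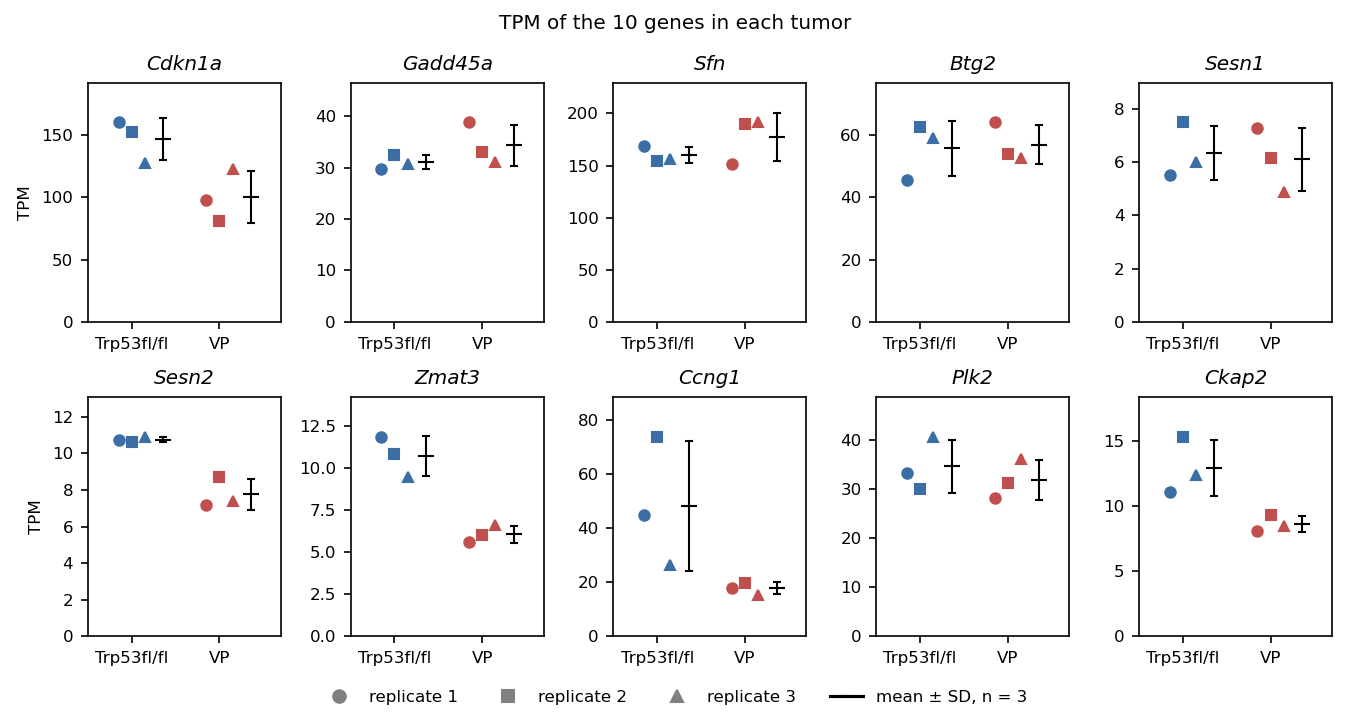
TPM (y axes from 0, a scale for each gene) of the 10 genes in 3 Trp53fl/fl tumors (blue) and 3 VP tumors (red), with 1 point per tumor, its shape giving the replicate number, and the mean ± SD (n = 3) in black. The groups are apart for *Cdkn1a*, *Sesn2*, *Zmat3*, *Ccng1* and *Ckap2*, and the Trp53fl/fl points of *Ccng1* are spread from 26.25 to 73.81 TPM.

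*Trp53* itself was read first. It was at 124.94, 99.30 and 147.45 TPM in the Trp53fl/fl group, against 38.45, 32.79 and 27.83 TPM in the VP group, so 26.7% of the mean level remained in the VP group, and the fall passed the test (log2 fold change -1.87, 95% confidence interval -2.29 to -1.45, limma adjusted p = 0.0207). The adjusted p of *Trp53* was above 0.05 in 6 alternatives, at 0.104 with no filter, 0.0883 with the replicate block, 0.0968 without Trp53fl/fl replicate 1, 0.0561 without Trp53fl/fl replicate 3, 0.0605 without VP replicate 1 and 0.108 without VP replicate 2. All 12 epithelial markers were detected, and their summed level was 10908 to 11288 TPM in the Trp53fl/fl tumors and 12371 to 13412 TPM in the VP tumors. The sums did not overlap. Singly, 3 of the 12 markers (*Lgals4*, *Cldn7* and *Krt19*) lay higher in the VP tumors without overlap (6.03% of all genes) and none passed the adjustment, and *Epcam* was at 99.5% of its Trp53fl/fl mean. Of the 7 neutrophil markers, 5 were higher in the VP tumors at an unadjusted p under 0.05 (4.51% of all genes) and none passed the adjustment, and the summed level was 1127 to 1944 TPM against 362 to 695 TPM, with *Csf3r* and *Ly6g* overlapping between the genotypes. The part of either cell type in the members' values was not tested.

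The arrest effectors came first by role. *Cdkn1a* (ENSMUSG00000023067), the gene of the kinase inhibitor p21, was at 160.22, 152.76 and 127.72 TPM in the Trp53fl/fl group, against 97.99, 80.75 and 122.41 TPM in the VP group. VP replicate 2 was the lowest tumor and VP replicate 3 came within 5.31 TPM of the lowest Trp53fl/fl tumor, a gap of 3.61% of the Trp53fl/fl mean. The mean was 68.3% of the Trp53fl/fl mean, with a log2 fold change of -0.56 (SE 0.17, 95% confidence interval -0.96 to -0.15, limma unadjusted p = 0.0136, adjusted p = 0.317). Median-of-ratios rescaling closed the gap, to 124.0 in the lowest Trp53fl/fl tumor and 125.8 in the highest VP tumor. It divided the Trp53fl/fl tumors by 1.021 to 1.03 and the VP tumors by 0.9727 to 0.9838, so the divisors did not overlap between the genotypes. An antisense gene, AC167363.2, overlaps *Cdkn1a* exons at 0.57 to 2.42 TPM, and whether the counting used strand is not given in the sources used here.

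*Cdkn1a* has 2 RefSeq starts, and the promoter of the upstream one is shown because it holds a pair of p53 consensus decamers, 73 and 51 bases before that start and 12 bases apart. The window of the downstream start holds none. The sequence is from RefSeq (GRCm38.p6, chr17:29090876-29090967, plus strand) and capitals mark the decamers.
Cdkn1a: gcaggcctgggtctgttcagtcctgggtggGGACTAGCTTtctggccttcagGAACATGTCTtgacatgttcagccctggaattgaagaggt
Over 32851 RefSeq windows of 300 bases (250 before to 50 after a start), 8.36% held at least 1 such decamer, which reads alike on both strands, and 0.0731% held a pair no more than 13 bases apart. Only exact matches to the consensus RRRCWWGYYY (R is A or G, W is A or T, Y is C or T) were counted and marked. Near matches were not, such as the bases directly after the second *Cdkn1a* decamer and directly before the *Ccng1* decamer. A match describes these letters and is no measured binding site. Of the members, 9 had a window, 11 windows in all, and 5 of those windows held a decamer, in *Cdkn1a*, *Ccng1*, *Ckap2*, *Gadd45a* and *Sesn1*. The windows of *Btg2*, *Sesn2*, *Sfn* and *Plk2* held none, and *Zmat3* had no entry. Of the 5 members with a decamer, 3 had every VP tumor below every Trp53fl/fl tumor, against 13.3% of all genes, and 2 did not separate. *Sesn2*, whose window held none, and *Zmat3*, which had no entry, also lay lower without overlap. A link between the decamers and the levels was not tested.

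*Gadd45a* (ENSMUSG00000036390) encodes a small stress protein that binds CDK1 and PCNA. It was at 29.81, 32.50 and 30.73 TPM in the Trp53fl/fl group, against 38.79, 33.03 and 31.14 TPM in the VP group. VP replicate 1 was the highest tumor, the other VP tumors lay near or among the Trp53fl/fl values, and the groups overlapped. The log2 fold change of 0.14 (SE 0.12, 95% confidence interval -0.15 to 0.42, limma adjusted p = 0.642) turned to -0.030 with epithelial centring. Its window holds 1 decamer, 40 bases before the start (RefSeq, GRCm38.p6, chr6:67037408-67037477, minus strand).
Gadd45a: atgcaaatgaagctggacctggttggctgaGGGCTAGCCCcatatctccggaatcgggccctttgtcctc
The antisense gene E230016M11Rik overlaps *Gadd45a* and was at 0.7 to 2.63 TPM.

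*Sfn* (ENSMUSG00000047281) encodes the epithelial 14-3-3 protein sigma, which holds cyclin B1 and CDK1 in the cytoplasm. It was the most abundant member in both groups, at 168.54, 154.61 and 156.10 TPM in the Trp53fl/fl group, against 151.23, 189.74 and 191.33 TPM in the VP group. VP replicate 1 was the lowest of all and the other VP tumors the highest, so the groups overlapped. With a log2 fold change of 0.14 (SE 0.12, 95% confidence interval -0.15 to 0.43, limma adjusted p = 0.634), which became -0.023 with epithelial centring, *Sfn* did not differ beyond the spread between tumors. Markers of squamous epithelium, which also expresses *Sfn*, had a summed level of 83.9 to 111 TPM in the Trp53fl/fl tumors and 39.6 to 142 TPM in the VP tumors, with the squamous regulator *Trp63* at 0.08 TPM or less, and their part in *Sfn* was not tested.

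*Btg2* (ENSMUSG00000020423), an antiproliferative gene whose protein brings the deadenylase complex to mRNA, was at 45.63, 62.39 and 58.85 TPM in the Trp53fl/fl group, against 63.95, 53.84 and 52.64 TPM in the VP group. The groups overlapped, with the lowest value in Trp53fl/fl replicate 1 and the highest in VP replicate 1. The log2 fold change was 0.04 (SE 0.15, 95% confidence interval -0.32 to 0.39, limma adjusted p = 0.932), and -0.13 with epithelial centring. *Btg2* is also an immediate-early gene. Of 16 immediate-early genes tested, 3 were higher in VP tumors (4.51% of all genes) and 1 lower (8%) at an unadjusted p under 0.05. None passed the adjustment, with *Nr4a1*, a nuclear receptor, at 0.59 (limma adjusted p = 0.278), *Zfp36*, an mRNA decay factor, at 0.52 (limma adjusted p = 0.358) and *Fos*, a subunit of AP-1, at 0.62 (limma adjusted p = 0.366).

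Among the members that act on growth signalling and RNA, *Zmat3* had the smallest p. *Zmat3* (ENSMUSG00000027663) encodes a zinc finger protein that binds RNA and regulates splicing and mRNA stability. It was at 11.86, 10.85 and 9.50 TPM in the Trp53fl/fl group, against 5.59, 6.04 and 6.60 TPM in the VP group. The groups were 2.9 TPM apart, 27.0% of the Trp53fl/fl mean and the widest relative gap of the 10 members. Its mean in VP tumors was 56.6% of the Trp53fl/fl mean, with a log2 fold change of -0.73 (SE 0.14, 95% confidence interval -1.06 to -0.39, limma unadjusted p = 0.00135, adjusted p = 0.182). A smaller p was found for 111 genes, 0.734% of those tested.

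*Sesn2* and *Sesn1* encode sestrins, stress proteins that restrain mTORC1, and *Sesn2* also answers to ATF4, the factor of the amino acid response. *Sesn2* (ENSMUSG00000028893) was at 10.72, 10.64 and 10.90 TPM in the Trp53fl/fl group, against 7.16, 8.70 and 7.41 TPM in the VP group. The Trp53fl/fl tumors were within 1.02-fold of each other and 1.94 TPM above the highest VP tumor. This gave a log2 fold change of -0.43 (SE 0.13, 95% confidence interval -0.74 to -0.12, limma unadjusted p = 0.0132, adjusted p = 0.317). The 12 ATF4 targets tested had 2 log2 fold changes below 0, against 60.8% of all genes. The other 10 were above 0, and the median was 0.14, against -0.07 over all genes. Of the 12, 1, the cystine transporter gene *Slc7a11* (log2 fold change -0.50, limma adjusted p = 0.341), was lower at an unadjusted p under 0.05. None was higher, and none passed the adjustment. Over all genes, 8% were lower and 4.51% higher at that unadjusted threshold. The other ATF4 targets with the smallest p were *Cebpg* at -0.25 (limma adjusted p = 0.520) and *Phgdh*, of serine synthesis, at 0.37 (limma adjusted p = 0.529).

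*Sesn1* (ENSMUSG00000038332), the least abundant member in the Trp53fl/fl tumors, was at 5.53, 7.49 and 5.99 TPM there, against 7.27, 6.15 and 4.89 TPM in the VP group. The groups overlapped over most of their range. Its log2 fold change of -0.05 (SE 0.19, 95% confidence interval -0.49 to 0.39, limma adjusted p = 0.922) was 0.0090 after median-of-ratios rescaling and 0.036 after quantile normalization. Of its 2 RefSeq starts, only the downstream one has a decamer, 173 bases before it (GRCm38.p6, chr10:41887236-41887305, plus strand).
Sesn1: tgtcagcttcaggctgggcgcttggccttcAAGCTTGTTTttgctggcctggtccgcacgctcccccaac

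Of the cyclin, kinase and spindle members, *Ccng1* had the largest fold change. *Ccng1* (ENSMUSG00000020326) encodes cyclin G1, which binds protein phosphatase 2A and acts on MDM2 in a feedback on p53. It was at 44.86, 73.81 and 26.25 TPM in the Trp53fl/fl group, against 18.09, 19.80 and 15.49 TPM in the VP group. The VP tumors lay close together (coefficient of variation 12.2%), whereas the Trp53fl/fl tumors spread 2.81-fold (49.6%), and 6.45 TPM separated the groups. The VP mean was 36.8% of the Trp53fl/fl mean, with a log2 fold change of -1.28 (SE 0.34, 95% confidence interval -2.07 to -0.48, limma unadjusted p = 0.00658, adjusted p = 0.280). Without Trp53fl/fl replicate 2 it was -0.92 and without Trp53fl/fl replicate 3 it was -1.65. The *Ccng1* window holds 1 exact decamer, 185 bases before the start, with a near match directly before it (RefSeq, GRCm38.p6, chr11:40755432-40755501, minus strand).
Ccng1: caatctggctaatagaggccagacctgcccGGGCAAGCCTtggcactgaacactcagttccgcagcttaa

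*Ckap2* (ENSMUSG00000037725) encodes a microtubule protein of the mitotic spindle and is made mainly by dividing cells. It was at 11.03, 15.29 and 12.39 TPM in the Trp53fl/fl group, against 8.09, 9.33 and 8.47 TPM in the VP group. Trp53fl/fl replicate 2 was the highest and VP replicate 1 the lowest, and 1.7 TPM separated the groups. *Ckap2* had a log2 fold change of -0.52 (SE 0.15, 95% confidence interval -0.88 to -0.16, limma unadjusted p = 0.0116, adjusted p = 0.312). The decamer in its window lies 203 bases before the start (RefSeq, GRCm38.p6, chr8:22185983-22186052, minus strand).
Ckap2: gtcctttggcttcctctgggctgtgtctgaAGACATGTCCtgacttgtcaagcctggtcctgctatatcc
Genes of S phase and mitosis repressed through the DREAM complex had 25 of 28 log2 fold changes below 0, against 60.8% of all genes, and a median of -0.14, against -0.07. At an unadjusted p under 0.05, 4 of the 28 were lower, against 8% of all genes, and none passed the adjustment. *Kif11*, a spindle motor, was at -0.57 (limma adjusted p = 0.312), *Cenpa*, the centromeric histone, at -0.35 (limma adjusted p = 0.340) and *Ccna2*, cyclin A2, at -0.35 (limma adjusted p = 0.330). The part of dividing cells in the *Ckap2* value was not tested.

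*Plk2* (ENSMUSG00000021701), a polo-like kinase of centriole duplication that serum also induces, was at 33.44, 30.14 and 40.73 TPM in the Trp53fl/fl group, against 28.30, 31.22 and 36.30 TPM in the VP group. The groups overlapped, with the lowest tumor in the VP group and the highest in the Trp53fl/fl group. Its log2 fold change of -0.12 (SE 0.15, 95% confidence interval -0.47 to 0.24, limma adjusted p = 0.766) was within the spread between tumors, and it was 0.0013 without Trp53fl/fl replicate 3.

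**Figure D2:**
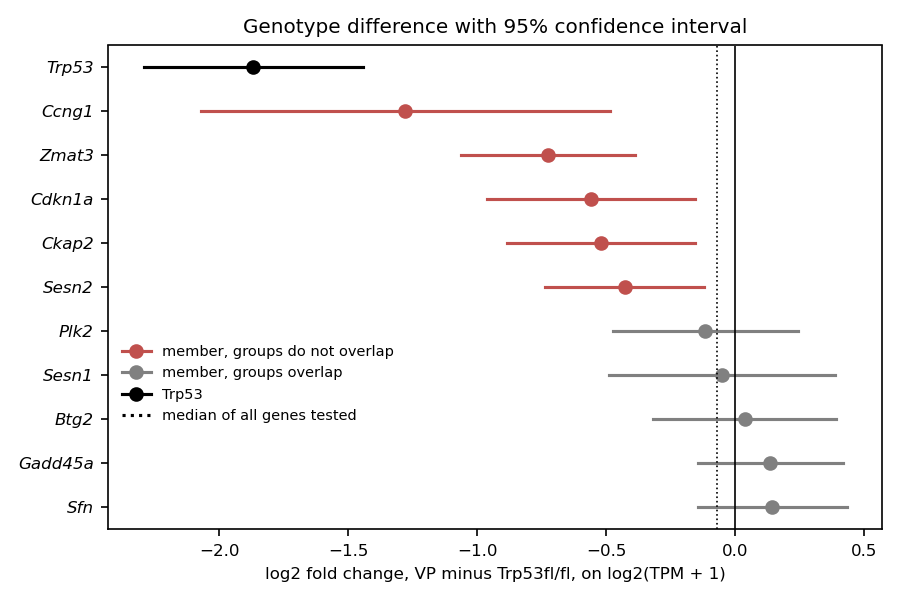
Log2 fold change (x axis, VP minus Trp53fl/fl on log2(TPM + 1)) with its 95% confidence interval for *Trp53* (black) and the 10 genes, red where the groups do not overlap and grey where they do, with a dotted line at the median of all genes. The intervals of *Trp53*, *Ccng1*, *Zmat3*, *Cdkn1a*, *Ckap2* and *Sesn2* lie below 0 and those of the other 5 genes cross it.

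Across tumors, no sample was the lowest or highest for every member. VP replicate 1 was the lowest tumor for 5 members and the highest for 2, and Trp53fl/fl replicate 2 was the highest for 3. The median log2 fold change was -0.56 over the 5 members whose groups did not overlap and 0.04 over the other 5, a split that those groups fix by construction. By role, 1 of 4 arrest effectors, 2 of 3 growth and RNA regulators and 2 of 3 cyclin, kinase and spindle genes had groups that did not overlap, against 13.3% of all genes with every VP tumor lower.

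The order of levels was similar in both genotypes. In the Trp53fl/fl tumors the mean TPM descended from *Sfn* (159.8) through *Cdkn1a* (146.9), *Btg2* (55.6), *Ccng1* (48.3), *Plk2* (34.8), *Gadd45a* (31.0), *Ckap2* (12.9), *Sesn2* (10.8) and *Zmat3* (10.7) to *Sesn1* (6.34). *Sfn* and *Cdkn1a*, *Btg2* and *Ccng1*, *Ccng1* and *Plk2*, *Plk2* and *Gadd45a*, and *Sesn2* and *Zmat3* overlapped as neighbours. In the VP tumors *Ccng1*, at a mean of 17.8 TPM, stood below *Gadd45a* (34.3) and *Plk2* (31.9), and *Zmat3* (6.08) came last, after *Sesn1* (6.10), with overlapping tumors.

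Each member but *Zmat3* was also read as a share of the summed TPM of its gene family, a quantity that scaling between tumors does not touch. *Ccng1* made up 53.1% to 70.0% of the cyclin G level in the Trp53fl/fl tumors and 40.1% to 41.2% in the VP tumors, without overlap. On the log2 fold change scale its relative *Ccng2* stood at -0.02 (limma adjusted p = 0.973). *Cdkn1a* held 50.6% to 61.9% of the CIP/KIP inhibitor level in the Trp53fl/fl tumors and 52.1% to 57.8% in the VP tumors, while the family sum was also lower, at 155.1 to 222.2 TPM against 246.8 to 269.2 TPM. Of that family, *Cdkn1c*, the p57 inhibitor, stood at -0.65 on the log2 scale (limma adjusted p = 0.377) and *Cdkn1b*, the p27 inhibitor, at 0.01 (limma adjusted p = 0.975).

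The sestrin sum lay at 25.02 to 28.97 TPM in the Trp53fl/fl tumors and 19.31 to 22.48 TPM in the VP tumors. *Sesn2* held 36.7% to 43.1% and 33.9% to 38.7% of it, and *Sesn1* 22.1% to 25.9% and 25.3% to 34.4%, both with overlap, beside a log2 fold change of -0.34 for *Sesn3* (limma adjusted p = 0.401). The share of *Sfn* among the 14-3-3 genes was 7.87% to 8.22% in the Trp53fl/fl tumors and 8.72% to 9.81% in the VP tumors, so it lay higher without overlap although the level of *Sfn* itself overlapped. *Ckap2* made up 45.1% to 50.1% of its pair with *Ckap2l* and 39.3% to 46.8% in the VP tumors, with overlap. The shares of *Btg2* (25.3% to 31.1% and 27.1% to 32.8%), *Gadd45a* (25.0% to 31.9% and 25.3% to 37.4%) and *Plk2* (31.1% to 33.7% and 28.3% to 37.4%) overlapped too. Over the 22 relatives, 1 was lower at an unadjusted p under 0.05 (8% of all genes), none passed the adjustment and the median log2 fold change was -0.06. Every VP tumor lay below every Trp53fl/fl tumor for 3 of them (13.3% of all genes). *Plk4*, a relative of *Plk2*, was among these 3, at -0.40 (limma adjusted p = 0.405).

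**Figure D3:**
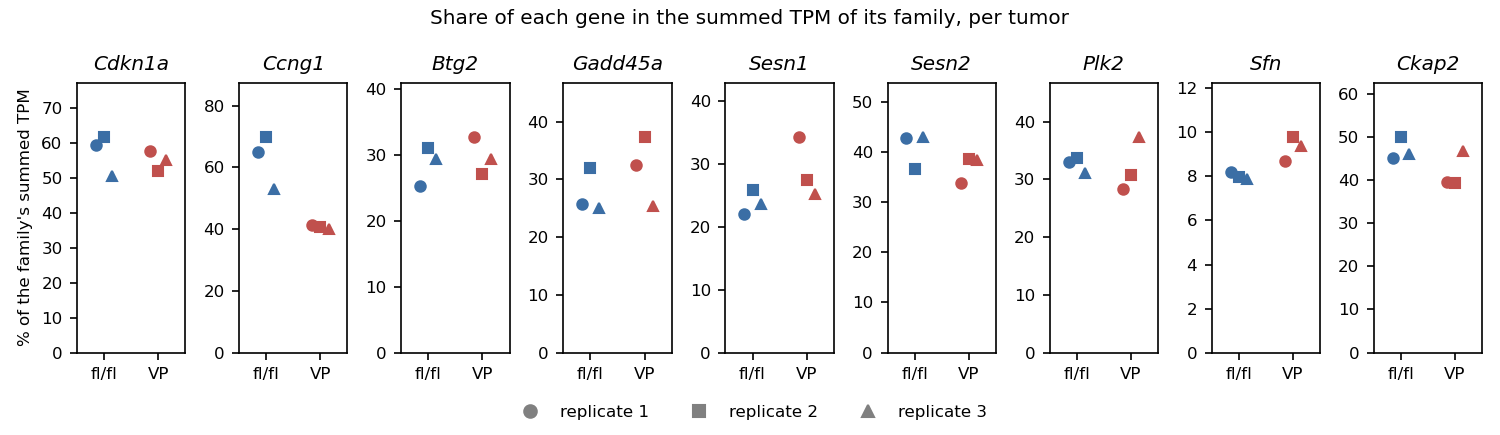
Share (%, y axes from 0, a scale for each gene) of 9 of the genes in the summed TPM of their gene family, with 1 point per tumor in the Trp53fl/fl (blue) and VP (red) groups and the shape giving the replicate number. The *Ccng1* points of the VP tumors sit at 40.1% to 41.2%, below all Trp53fl/fl tumors, and those of *Sfn* sit above them.

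The rest of the pathway was read from a list of 29 other p53 targets, mostly genes of apoptosis, repair, metabolism and feedback with a few of the cell cycle such as *Psrc1*, and 28 of them were tested. Of these, 2 fell with an adjusted p under 0.05 (0.086% of all genes). At an unadjusted p under 0.05, 10 were lower (8% of all genes) and none was higher (4.51%). Every VP tumor lay below every Trp53fl/fl tumor for 9 of them (13.3% of all genes) and above for 2 (6.03%). The median log2 fold change was -0.24 (-0.07 over all genes). *Ephx1*, which encodes microsomal epoxide hydrolase, was at 32.62, 41.90 and 30.93 TPM in the Trp53fl/fl group, against 7.99, 9.36 and 7.46 TPM in the VP group (log2 fold change -1.96, limma adjusted p = 0.0080). *Phlda3*, an inhibitor of AKT signalling, was at 63.88, 46.26 and 34.54 TPM and at 13.55, 11.88 and 13.42 TPM (log2 fold change -1.78, limma adjusted p = 0.0447). Both changes were larger in size than that of any member. *Psrc1*, a microtubule protein, was at -1.53 (limma adjusted p = 0.114). Without Trp53fl/fl replicate 1 the adjusted p of *Ephx1* was 0.059 and without VP replicate 1 it was 0.0605, and that of *Phlda3* was 0.0961 to 0.205 when any tumor other than Trp53fl/fl replicate 3 was left out.

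Downstream of p21, the cyclins, cyclin-dependent kinases and RB and E2F genes gave 18 of 25 below 0 (60.8% of all genes) with a median of -0.18, 3 lower (8% of all genes) and 1 higher (4.51%) at an unadjusted p under 0.05 and none past the adjustment. *Cdk6*, a G1 kinase, was at -0.56 (limma adjusted p = 0.279) and *E2f3*, an S phase transcription factor, at -0.38 (limma adjusted p = 0.366). Among the 6 other inhibitors of cyclin-dependent kinases, *Cdkn2a*, which encodes p16INK4a and p19ARF, lay opposite to *Cdkn1a*. It was at 11.95, 31.92 and 7.10 TPM in the Trp53fl/fl group, against 39.84, 79.97 and 45.44 TPM in the VP group, without overlap (log2 fold change 1.82, limma adjusted p = 0.301). *Cdkn2d* was at 0.31 (limma adjusted p = 0.585).

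**Figure D4:**
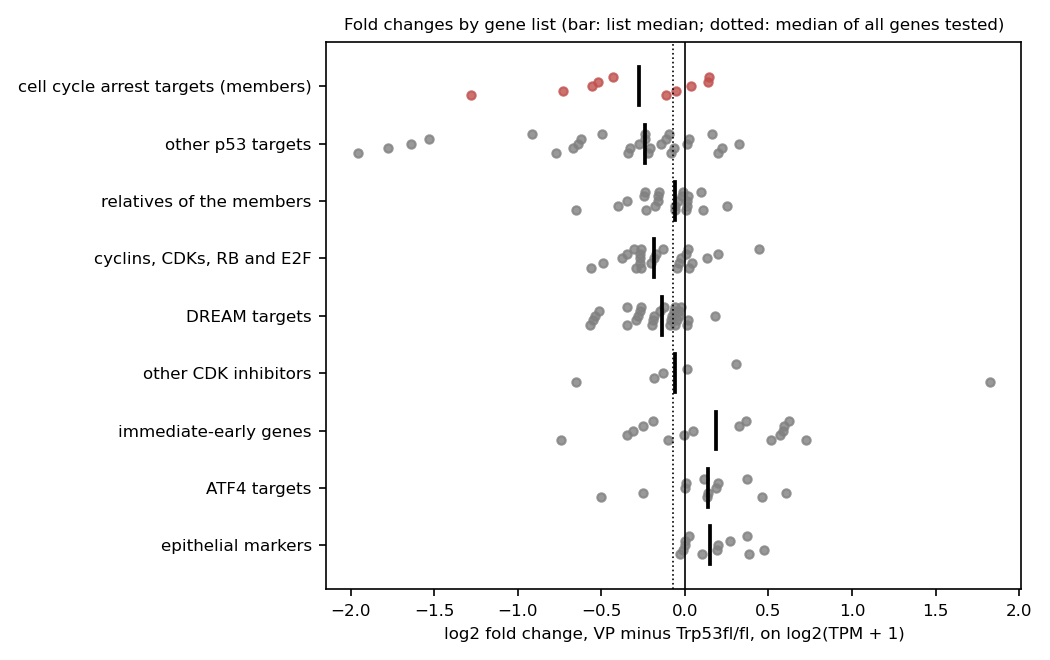
Log2 fold change (x axis, VP minus Trp53fl/fl on log2(TPM + 1)) of each tested gene, 1 point per gene, by list, with the list median as a bar and the median of all genes as a dotted line. The bar of the 10 genes (red points) is at -0.27, that of the other p53 targets at -0.24 and that of the epithelial markers at 0.15.

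The 5 members whose groups did not overlap kept their direction in all 75 values from the 15 alternatives, and none of those values passed an adjusted p of 0.05, the smallest being 0.0833 for *Zmat3* with epithelial centring. Most of these directions were fixed in advance. Leaving out a tumor or changing the pseudocount cannot reverse groups that do not overlap. The filters, the replicate block, no trend and robust empirical Bayes left each log2 fold change as it was. Only rescaling, quantile normalization and centring could have turned a direction. The directions of *Btg2*, *Gadd45a*, *Sesn1*, *Plk2* and *Sfn* each turned in at least 1 alternative. Centring on the epithelial markers shifted every gene alike and moved the median of all genes from -0.07 to -0.24 and that of the members to -0.44.

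**Figure D5:**
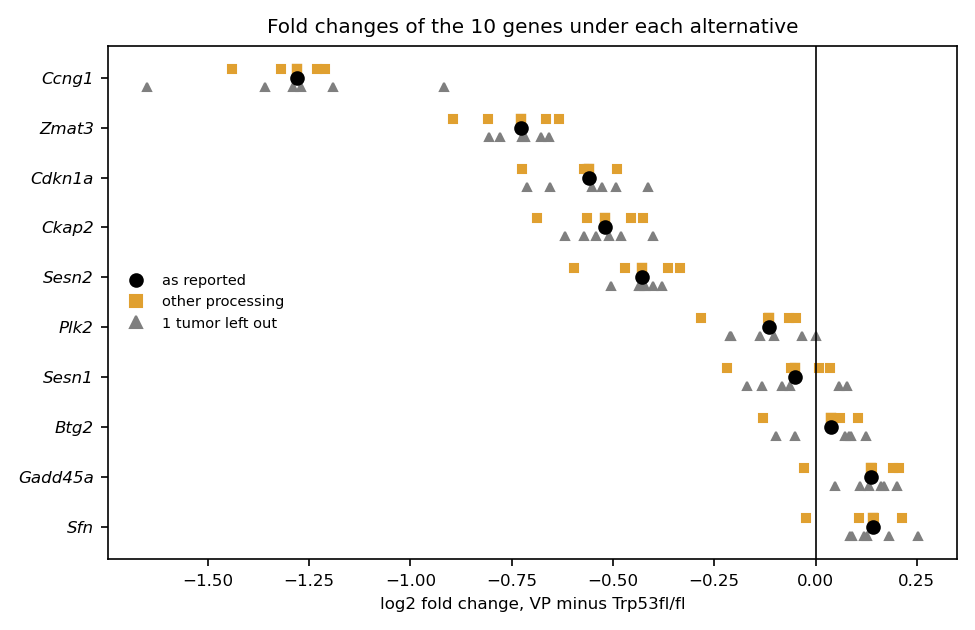
Log2 fold change (x axis, VP minus Trp53fl/fl) of the 10 genes as reported (black), under other processing (orange squares) and with 1 tumor left out (grey triangles). The points of *Ccng1*, *Zmat3*, *Cdkn1a*, *Ckap2* and *Sesn2* all lie below 0 and those of the other genes fall on both sides of it.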

How the data were processed

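Poly(A) RNA from 3 Trp53fl/fl and 3 VP colorectal tumor samples was sequenced from both ends by the authors (TruSeq libraries). They deposited TPM per gene with 2 decimals, and the submitters' processing notes name HISAT2, StringTie and the build mm9. The annotation and the strand setting are not given in the sources used here. TPM keep no counts, so depth per tumor is unknown and counting errors are not given.

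From the deposited TPM, log2(TPM + 1) was fitted for the 15117 genes that reached 1 TPM in 3 tumors or more, with limma 3.58.1 in R 4.3.3 (empirical Bayes with trend, Benjamini-Hochberg adjustment over all genes, threshold 0.05). The two-sided test compared VP with Trp53fl/fl. Tables and plots used Python 3.11.15, pandas 2.3.3 and matplotlib 3.10.9, and the fit was checked on simulated data. Promoter sequences were matched by symbol to RefSeq (GRCm38.p6), in which 9 of 10 members had an entry, and overlapping genes by ID to GENCODE M21, in which 52093 of 54167 gene IDs (96.17%) were found. Those coordinates belong to GRCm38 and not to the build of the processing notes.

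The members and lists were chosen with earlier results of these data known. Named genes were every member, *Trp53*, and in each list described, other than cell type markers, the genes with an adjusted p under 0.05 and the 3 with the smallest unadjusted p. Family shares and the relatives *Ccng2*, *Cdkn1b* and *Ckap2l* were added after the values were seen. Alternatives were a pseudocount of 0.1, a minimum mean of 5 TPM, no filter, quantile normalization, median-of-ratios rescaling, centring on 12 epithelial markers, the replicate number as a block, no trend, robust empirical Bayes and each tumor left out.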

Additional observations from a re-analysis of the deposited data

How the results depend on the processing

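With 3 tumors per genotype, values without counts and whole tissue, differences between the genotypes of the size seen in *Btg2*, *Gadd45a*, *Sesn1*, *Plk2* and *Sfn* were not resolved from the spread between tumors. The number of members lower at an unadjusted p under 0.05 was 5 and that past the adjustment 0 in all 15 alternatives, and the number with groups that did not overlap was 5 in all but median-of-ratios rescaling, where it was 4. Only rescaling, quantile normalization and centring could have lowered that last number. The share of all genes lower at an unadjusted p under 0.05, 8% as reported, is not given here for the alternatives. Over all genes, 25 passed an adjusted p of 0.05, against 7 with no filter (27871 genes tested), 43 with epithelial centring, 10 with the replicate block and 3 to 23 with 1 tumor left out (3 without Trp53fl/fl replicate 1, 14 without 2, 9 without 3, 7 without VP replicate 1, 5 without 2 and 23 without 3). Genes higher in VP tumors made up 48.0% of these calls, 59.1% with median-of-ratios rescaling, 34.9% with epithelial centring, 70.0% with the replicate block, 71.4% without VP replicate 1 and all 3 calls without Trp53fl/fl replicate 1, with 60.0% to 66.7% when another tumor was left out. The median log2 fold change of the members was -0.27, and -0.44 with epithelial centring, against -0.07 and -0.24 over all genes.

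Directions turned with epithelial centring for *Btg2* (-0.13), *Gadd45a* (-0.030) and *Sfn* (-0.023), and for *Sesn1* with median-of-ratios rescaling (0.0090) and quantile normalization (0.036). The centring subtracts 1 value per tumor from every gene, so it lowered all log2 fold changes by the same amount. With 1 tumor left out, the log2 fold change ranged from -0.097 to 0.13 for *Btg2*, -0.17 to 0.077 for *Sesn1* and -0.21 to 0.0013 for *Plk2*, with the direction turned without Trp53fl/fl replicate 1 or VP replicate 1 for *Btg2*, without Trp53fl/fl replicate 2 or VP replicate 3 for *Sesn1* and without Trp53fl/fl replicate 3 for *Plk2*. The causes of the turns without that centring were not tested. The adjusted p of *Trp53* was 0.104 with no filter and 0.0883 with the replicate block. That of *Phlda3* was 0.189 with no filter, 0.0532 with median-of-ratios rescaling, 0.101 with the replicate block and 0.0649 with no trend. *Psrc1* reached 0.0448 with epithelial centring.

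The labels give no pairing of samples between the 2 genotypes beyond the replicate numbers. Deviations from the group means correlated at 0.0185, -0.052 and 0.0175 for numbers 1, 2 and 3. These values show no strong shared shift and cannot settle whether samples were paired. The replicate block changed no call of a member.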
